A study of Mus musculus with 14 samples.

Results

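The Bcl2 family regulators of apoptosis are described here by 10 genes fixed by name: the effectors Bax and Bak1, the guardians Bcl2, Bcl2l1 and Mcl1, and the BH3-only genes Bcl2l11, Bid, Bbc3, Pmaip1 and Bad. All 10 were found among the 20492 gene symbols of the deposited tables, where they take up 17 coding-sequence rows in each tissue. The study sequenced total RNA from the cortex and hippocampus of C57BL/6 mice aged 3 months, in TRF2-depleted and control animals. TRF2, encoded by Terf2, is a shelterin protein that shields chromosome ends from being read as DNA breaks, and the series title asks how far neurons need functional telomeres. The design text calls the cohorts TRF2-DCX-cre and WT, so Cre is under the control of Dcx, which marks young neurons, and glia and vessels of the same tissue are not expected targets of that driver.

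The labels place 3 TRF2-depleted and 4 control samples in the cortex, and 3 TRF2-depleted and 3 control samples in the hippocampus, and 1 more TRF2-depleted sample names both tissues. The hippocampus table also holds a condition that it calls DKO. No label describes that condition, so its genotype and number of samples are unknown here, and it is named only as the table names it. For every row the authors give 1 FPKM value per condition (fragment counts divided by length and by library size), pooled over samples, so no spread between samples can be computed and the read depth is unknown. Error enters only through the authors' Cuffdiff test, which gives each tested row a p-value and an adjusted p-value (q). A row counts as called at a q of 0.05 or less.

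Bcl2 family proteins decide whether the outer mitochondrial membrane stays closed. Bax and Bak1 can assemble into pores that release cytochrome c, which starts caspase activation. Bcl2, Bcl2l1 (Bcl-xL) and Mcl1 hold them back, and BH3-only proteins tip the balance: Bcl2l11 (Bim), Bid and Bbc3 (PUMA) can activate the effectors directly, while Pmaip1 (Noxa) and Bad mainly occupy guardians. Several are turned on by p53 after DNA damage, Bax, Bbc3 and Pmaip1 among them. In the nervous system Bax is the main effector of developmental neuron death and Bcl2l1 the guardian most associated with mature neurons.

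Terf2, the targeted gene, was at 0.202 FPKM in TRF2-depleted and 3.59 FPKM in control cortex, and at 0.753 FPKM in DKO, 0.883 FPKM in TRF2-depleted and 2.01 FPKM in control hippocampus, summed over its rows. Its 1 tested row, in cortex, did not pass in the authors' deposited table (0.168 against 3.11 FPKM, log2 ratio -4.21, Cuffdiff p = 0.1051, q = 0.576). Summed marker genes followed the labelled tissues: 5 cortical genes summed to 53 and 49.2 FPKM in TRF2-depleted and control cortex and to between 21.4 and 23.4 FPKM in hippocampus, while 5 hippocampal genes summed to 13.3 FPKM in TRF2-depleted and 14.3 FPKM in control cortex and to between 55.5 and 65.8 FPKM in hippocampus. Single hippocampal genes were uneven between the hippocampus groups. Prox1 was at 2.64 FPKM in DKO, 1.38 FPKM in TRF2-depleted and 4.88 FPKM in control hippocampus, against 1.6 FPKM in control cortex. Dsp was at 1.38 FPKM in DKO, 1.16 FPKM in TRF2-depleted and 3.27 FPKM in control hippocampus. Fibcd1 and Spink8 went the other way, highest in DKO and lowest in control hippocampus, and Wfs1 lay between 23.6 and 28.3 FPKM. The cortex and hippocampus tables were normalised separately, so levels across tissues are set side by side without a test. Choroid plexus content was uneven. Its 5 marker genes summed to 0.719 FPKM in TRF2-depleted and 3.47 FPKM in control cortex, with Kcne2 listed at 0 in TRF2-depleted cortex, and to 4.02 FPKM in DKO, 18.4 FPKM in TRF2-depleted and 12.8 FPKM in control hippocampus. The 5 meningeal markers summed to 33.7 FPKM in DKO, 43.7 FPKM in TRF2-depleted and 30.1 FPKM in control hippocampus. In bulk tissue, fewer cells of a type and less RNA per cell cannot be told apart.

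No member was called in any of the 4 comparisons. In TRF2-depleted against control cortex, 0 of 6 tested member rows passed at a q of 0.05, against 0.304% of the 9536 tested rows of all genes (Cuffdiff), and 0 of 6 had an unadjusted p under 0.05, against 6.24%. In TRF2-depleted against control hippocampus, 0 of 8 tested member rows passed, against 0.163% of all tested rows, and 0 of 8 had an unadjusted p under 0.05, against 4.89%. In DKO against control hippocampus, 0 of 7 passed, against 0.181%, and 2 of 7 had an unadjusted p under 0.05, against 6.71%. In DKO against TRF2-depleted hippocampus, 0 of 8 passed, against 0.154%, and 1 of 8 had an unadjusted p under 0.05, against 4.79%. With so few rows, a background share this low leaves most lists of this length with no call, so the zeros are no evidence that the family held still. The 3 hippocampus comparisons share their groups and are not independent of each other.

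The genes spanned a wide range of levels, and that order was much alike in both tissues. In control cortex Bcl2l1 was highest at 18.9 FPKM, above 89.6% of all genes with a value over 0. Mcl1 followed at 11.6 FPKM, Bad at 8.52 FPKM and Bax at 7.19 FPKM. Bcl2, Bak1 and Bid lay between 1.62 and 2.70 FPKM, and Bcl2l11, Bbc3 and Pmaip1 between 0.609 and 0.961 FPKM. In control hippocampus the same 4 genes led, with Bcl2l1 at 14.4 FPKM, Mcl1 at 13.1 FPKM, Bad at 9.03 FPKM and Bax at 7.31 FPKM. Pmaip1 was lowest there too, at 0.398 FPKM, above 19.7% of genes with a value over 0. Because no spread can be computed, neighbours in this order, such as Bcl2l11 and Bbc3 in cortex, are not shown to differ.

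**Figure D1:**
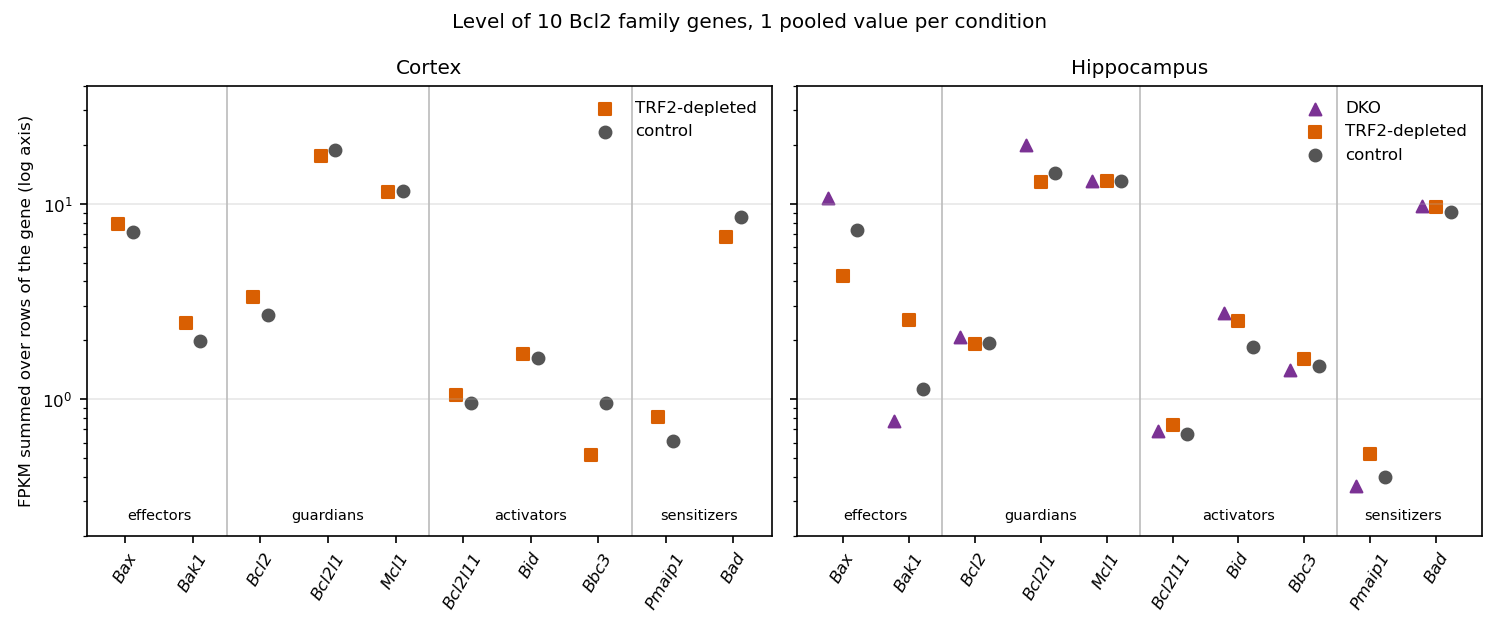
FPKM of the 10 genes, summed over rows, on a log axis, with 1 point per pooled condition and no error bars because no replicate values are in the tables. Bcl2l1 and Mcl1 lie at the top in every condition, and Bax and Bak1 are farther apart between the hippocampus conditions than Mcl1, which lies between 13.0 and 13.1 FPKM.

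Bax, the pore-forming effector, had the most uneven level of the abundant members in hippocampus. It was at 10.7 FPKM in DKO, 4.25 FPKM in TRF2-depleted and 7.31 FPKM in control hippocampus. The DKO value was thus highest and the TRF2-depleted value lowest, with control between them. In the authors' deposited table DKO exceeded TRF2-depleted hippocampus by a log2 ratio of 1.33, which had an unadjusted Cuffdiff p of 0.0315 and did not pass the adjustment (q = 0.858). Against control, the log2 ratio was -0.78 in TRF2-depleted hippocampus (p = 0.1739, q = 0.886) and 0.55 in DKO hippocampus (p = 0.164, q = 0.886) in the authors' deposited table. In cortex Bax stood at 7.88 FPKM in TRF2-depleted and 7.19 FPKM in control tissue, with a log2 ratio of 0.13 (p = 0.6266, q = 0.894 in the authors' deposited table). Choroid plexus markers differed the other way from Bax, with 5 of 5 lower in DKO than in TRF2-depleted hippocampus, as were 5 of 5 meningeal markers. Of the endothelial, astrocyte and oligodendrocyte markers, 3 of 4 in each list were lower. Other lists ran the same way as Bax, with 5 of 5 hippocampal, 4 of 4 microglial and 3 of 4 pan-neuronal markers higher in DKO. The part of any of these lists in the Bax values was not tested.

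The size of the Bax ratio can be read against rows of similar abundance. Among 2907 tested rows within 1.5-fold of its mean level in DKO against TRF2-depleted hippocampus, the median absolute log2 ratio was 0.16, and the 147 rows with an unadjusted p under 0.05 had a median of 0.48. The Bax ratio was larger than either value, and 4 of those 2907 rows were called. Bax lies on chromosome 7, minus strand, from 45461652 to 45466898 (mm10) in the hippocampus table and has 1 coding-sequence row. Exons of the annotated gene Gm45808, on the same strand, cover 192 of its 614 coding bases in GENCODE, so part of its reads could be shared.

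Because Bax is a textbook p53 target and varied most among the abundant members, the 250 bases before its RefSeq transcription start (GRCm38.p6, the assembly of mm10) are shown. Capitals mark the 1 match to the p53 consensus decamer, the unit that a p53 site carries as a pair, from 201 to 192 bases before the start. The window is chr7:45466899-45467148, minus strand, written 5′ to 3′.
Bax: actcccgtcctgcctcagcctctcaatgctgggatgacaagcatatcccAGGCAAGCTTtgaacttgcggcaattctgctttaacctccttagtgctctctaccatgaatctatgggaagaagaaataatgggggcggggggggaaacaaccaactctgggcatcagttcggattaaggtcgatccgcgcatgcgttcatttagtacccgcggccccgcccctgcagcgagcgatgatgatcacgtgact
A match of this kind was found in 7.13% of 32851 such windows of all genes and in 1 of the 15 windows of 9 members in the promoter table. It is a description of letters and not a site shown to be used here.

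Bak1, the other effector, had an even wider ratio at a much lower level. It was at 0.769 FPKM in DKO, 2.55 FPKM in TRF2-depleted and 1.13 FPKM in control hippocampus. Its order was the reverse of that of Bax, with the TRF2-depleted value highest and the DKO value lowest. The choroid plexus markers had the same order as Bak1 in hippocampus (4.02 FPKM in DKO, 18.4 FPKM in TRF2-depleted and 12.8 FPKM in control hippocampus). There 5 of 5 were lower in DKO than in either other group and 5 of 5 higher in TRF2-depleted than in control tissue. In cortex their sum went the other way from Bak1, at 0.719 FPKM in TRF2-depleted and 3.47 FPKM in control tissue. The part of these markers in the Bak1 values was not tested. The log2 ratio was -1.73 for DKO against TRF2-depleted hippocampus (p = 0.2787, q = 0.886) and 1.17 for TRF2-depleted against control hippocampus (p = 0.1308, q = 0.886) in the authors' deposited table. The authors did not test Bak1 in DKO against control hippocampus, where the log2 ratio was -0.56. With a pseudocount of 1 FPKM these ratios became -1.01, 0.74 and -0.27, in the same order. In cortex it was at 2.45 FPKM in TRF2-depleted and 2.00 FPKM in control tissue (log2 ratio 0.30, p = 0.2314, q = 0.691 in the authors' deposited table). At this abundance ratios scatter more: the 2251 tested rows within 1.5-fold of the level of Bak1 in DKO against TRF2-depleted hippocampus had a median absolute log2 ratio of 0.39, and those with an unadjusted p under 0.05 had a median of 0.74. The gene lies on chromosome 17, minus strand (27018035 to 27036378 as deposited), and exons of Ggnbp1 on the opposite strand cover 143 of its 741 coding bases. The labels do not say that strand was used in counting, so reads of these genes may not be told apart.

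Among the guardians Mcl1, a short-lived protein needed by neural progenitors, was the steadiest member. It was at 11.4 FPKM in TRF2-depleted and 11.6 FPKM in control cortex. In hippocampus it was at 13.0 FPKM in DKO, 13.1 FPKM in TRF2-depleted and 13.1 FPKM in control tissue. The 4 log2 ratios lay between -0.02 and 0.00, and the smallest p of the 4 in the authors' deposited table was 0.86. Of the 2063 tested rows within 1.5-fold of its level in DKO against TRF2-depleted hippocampus, 133 had an unadjusted p under 0.05. Their median absolute log2 ratio was 0.425 and the smallest was 0.24, which gives the scale of what the authors' test marked at this abundance. Mcl1 lies on chromosome 3, plus strand, from 95658721 to 95663178.

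Bcl2l1 was the most abundant member in 4 of the 5 conditions, and Mcl1 came just above it in TRF2-depleted hippocampus. It was at 19.9 FPKM in DKO, 12.9 FPKM in TRF2-depleted and 14.4 FPKM in control hippocampus. The DKO value was highest, as for Bax, and the TRF2-depleted value lowest. All 5 choroid plexus markers were lower in DKO than in either other hippocampus group. Against TRF2-depleted hippocampus, 5 of 5 meningeal markers were also lower in DKO, while 5 of 5 hippocampal, 4 of 4 microglial and 3 of 4 pan-neuronal markers were higher. The part of these lists in the Bcl2l1 values was not tested. For Bcl2l1, DKO against control gave a log2 ratio of 0.47 with an unadjusted p of 0.03055 and a q of 0.856 in the authors' deposited table. The larger ratio of 0.62, for DKO against TRF2-depleted hippocampus, had a p of 0.1213 (q = 0.886), and the ratio of -0.15 for TRF2-depleted against control hippocampus a p of 0.6671 (q = 0.961), in the authors' deposited table. In cortex Bcl2l1 was at 17.5 FPKM in TRF2-depleted and 18.9 FPKM in control tissue, and its tested row had a log2 ratio of -0.12 (p = 0.271, q = 0.715) in the authors' deposited table. Its locus as deposited, chromosome 2 from 152754173 to 152831728, also spans Cox4i2, whose exons cover 0 of its coding bases.

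Bcl2, the founding member and abundant in the developing rather than the adult brain, was far lower than the other guardians. Its summed level was 3.33 FPKM in TRF2-depleted and 2.70 FPKM in control cortex, and 2.08 FPKM in DKO, 1.92 FPKM in TRF2-depleted and 1.93 FPKM in control hippocampus. The cortex ratio changed sign with the way its rows were treated. The tested row was at 2.36 FPKM in TRF2-depleted and 2.56 FPKM in control cortex (log2 ratio -0.12, p = 0.4738, q = 0.829 in the authors' deposited table), while the untested row was at 0.973 FPKM in TRF2-depleted and 0.145 FPKM in control cortex, which turned the sum to a log2 ratio of 0.30. In hippocampus the tested row gave log2 ratios between -0.08 and 0.06, with p of 0.6345 or more in the authors' deposited table. The gene lies on chromosome 1, minus strand, from 106538178 to 106714290.

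**Figure D2:**
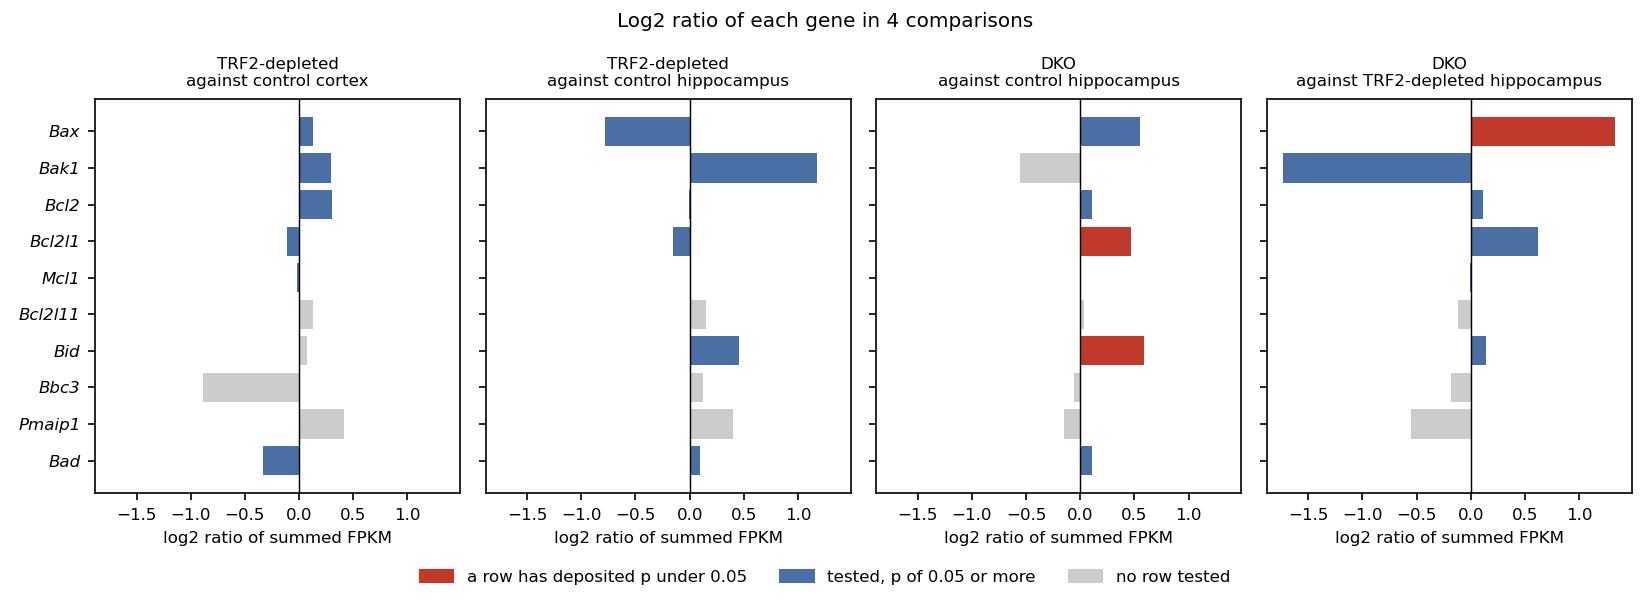
Log2 ratio of summed FPKM for each gene in the 4 comparisons, positive where the group named first is higher, coloured by whether a row of the gene was tested and whether its deposited p was under 0.05. Bax and Bak1 point in opposite directions in all 3 hippocampus comparisons, Mcl1 stays near 0, and the 3 red bars (Bcl2l1, Bid and Bax) have q of 0.856 or more.

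The summed effectors stood below the summed guardians in every condition. Bax and Bak1 together came to 10.3 FPKM in TRF2-depleted and 9.19 FPKM in control cortex, while the guardians came to 32.3 FPKM in TRF2-depleted and 33.2 FPKM in control cortex. The effector to guardian ratio was 0.320 in TRF2-depleted and 0.277 in control cortex. In hippocampus it was 0.328 in DKO, 0.243 in TRF2-depleted and 0.287 in control tissue, following the order of Bax. That order holds for the 3 guardians among the members only. Bcl2l2, a further guardian left out of the sum, was at 10.6 FPKM in DKO, 9.31 FPKM in TRF2-depleted and 2.54 FPKM in control hippocampus. With Bcl2l2 counted, the ratio would not keep the order of Bax. The ratio of Bax to Bcl2 alone was 5.14 in DKO, 2.21 in TRF2-depleted and 3.79 in control hippocampus, and 2.36 in TRF2-depleted and 2.66 in control cortex. The direction of that last ratio in cortex rested on the untested row of Bcl2: over the tested row alone, Bax to Bcl2 was 3.34 in TRF2-depleted and 2.81 in control cortex. None of these ratios can be tested. They compare RNA levels per coding length and say nothing of protein.

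The BH3-only activators were low to middling in level. Bid was the highest of them, and in DKO hippocampus it lay above 50.2% of genes with a value over 0. Bid, which caspase-8 cleaves to link death receptors to mitochondria, was at 2.77 FPKM in DKO, 2.52 FPKM in TRF2-depleted and 1.84 FPKM in control hippocampus. Both other groups lay above control. The 4 endothelial markers summed to 15.6 FPKM in DKO, 18.0 FPKM in TRF2-depleted and 14.1 FPKM in control hippocampus, with 4 of 4 higher than control in both groups. Slco1a4, 1 of these 4, was close to 0 in control hippocampus, at 0.000271 FPKM. Of the 5 meningeal markers, 4 were higher in DKO and 5 in TRF2-depleted than in control hippocampus. Striatal markers were also higher in both groups (4 of 4), as were 3 of 4 oligodendrocyte markers in DKO and 4 of 4 in TRF2-depleted tissue. Choroid plexus markers split, with 5 of 5 lower in DKO and 5 of 5 higher in TRF2-depleted than in control hippocampus. The part of any of these lists in the Bid values was not tested. DKO against control had a log2 ratio of 0.59 with an unadjusted p of 0.0354 (q = 0.880), and TRF2-depleted against control a log2 ratio of 0.45 (p = 0.1242, q = 0.886), in the authors' deposited table. These comparisons share the control samples. In cortex Bid was at 1.70 FPKM in TRF2-depleted and 1.62 FPKM in control tissue and was not tested by the authors. Bid lies on chromosome 6, minus strand, from 120893119 to 120916820.

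Bbc3, a strong p53-induced activator of neuron death after DNA damage, was at 0.519 FPKM in TRF2-depleted and 0.959 FPKM in control cortex, a log2 ratio of -0.89. In hippocampus it was at 1.42 FPKM in DKO, 1.61 FPKM in TRF2-depleted and 1.47 FPKM in control tissue, with log2 ratios between -0.18 and 0.12. The authors tested it in no comparison, so the lower cortex value has no p, and with a pseudocount of 1 FPKM its log2 ratio was -0.37. Bcl2l11, an activator induced by FoxO factors and by loss of trophic support, summed to 1.05 FPKM in TRF2-depleted and 0.961 FPKM in control cortex. In hippocampus it summed to 0.684 FPKM in DKO, 0.741 FPKM in TRF2-depleted and 0.667 FPKM in control tissue. None of its 5 rows was tested, and all its summed log2 ratios lay between -0.12 and 0.15. Its most abundant row in hippocampus was at 0.588 FPKM in DKO, 0.299 FPKM in TRF2-depleted and 0.591 FPKM in control tissue, so that with this row in place of the sum the log2 ratio turned to 0.98 for DKO against TRF2-depleted hippocampus, where the sum gave -0.12, and to -0.98 for TRF2-depleted against control hippocampus, where the sum gave 0.15.

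FoxO factors are known regulators of both Bcl2l11 and Bbc3, and each had a match to their core motif GTAAACA, searched on both strands, in the 250 bases before a RefSeq start (GRCm38.p6). The matches are shown in capitals within 30 bases, written 5′ to 3′ on the plus strand, on which both genes lie. The windows are chr2:128125800-128125829 and chr7:16310083-16310112.
Bcl2l11: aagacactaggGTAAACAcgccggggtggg
Bbc3: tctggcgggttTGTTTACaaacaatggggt
In Bbc3 the motif reads on the opposite strand and lies before a start inside the annotated gene. GTAAACA occurred in 3.17% of 32851 windows of all genes and in 2 of the 15 member windows. The E-box CACGTG occurred in 6.02% of all windows and in 2 member windows, those of Bax and Bbc3.

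Of the sensitizers, Pmaip1, a p53-induced antagonist of Mcl1, was the lowest member in 4 of the 5 conditions. It was at 0.810 FPKM in TRF2-depleted and 0.609 FPKM in control cortex, and at 0.360 FPKM in DKO, 0.526 FPKM in TRF2-depleted and 0.398 FPKM in control hippocampus. TRF2-depleted values were above control in both tissues, with log2 ratios of 0.41 and 0.40, but the authors tested it in no comparison. With a pseudocount of 1 FPKM these became 0.17 and 0.13.

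Bad, a sensitizer that is held inactive by phosphorylation, was the most abundant BH3-only gene. It summed to 6.78 FPKM in TRF2-depleted and 8.52 FPKM in control cortex, and to 9.73 FPKM in DKO, 9.66 FPKM in TRF2-depleted and 9.03 FPKM in control hippocampus. Its pair of rows had ratios of opposite sign against control hippocampus. Row 1 was at 7.56 FPKM in DKO, 7.17 FPKM in TRF2-depleted and 5.49 FPKM in control hippocampus. Row 2 was at 2.17 FPKM in DKO, 2.48 FPKM in TRF2-depleted and 3.54 FPKM in control hippocampus. No row of Bad passed, with p of 0.2051 or more in the authors' deposited table, and the sum differed little between groups (log2 ratios between 0.01 and 0.11). In cortex row 2, the tested one, was at 5.71 FPKM in TRF2-depleted and 6.35 FPKM in control tissue (log2 ratio -0.15, p = 0.667, q = 0.911 in the authors' deposited table), and the summed log2 ratio was -0.33. The deposited locus, chromosome 19 from 6937988 to 6951905 in hippocampus, also spans Gpr137, whose exons on the opposite strand cover 118 of the 933 coding bases of Bad.

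**Figure D3:**
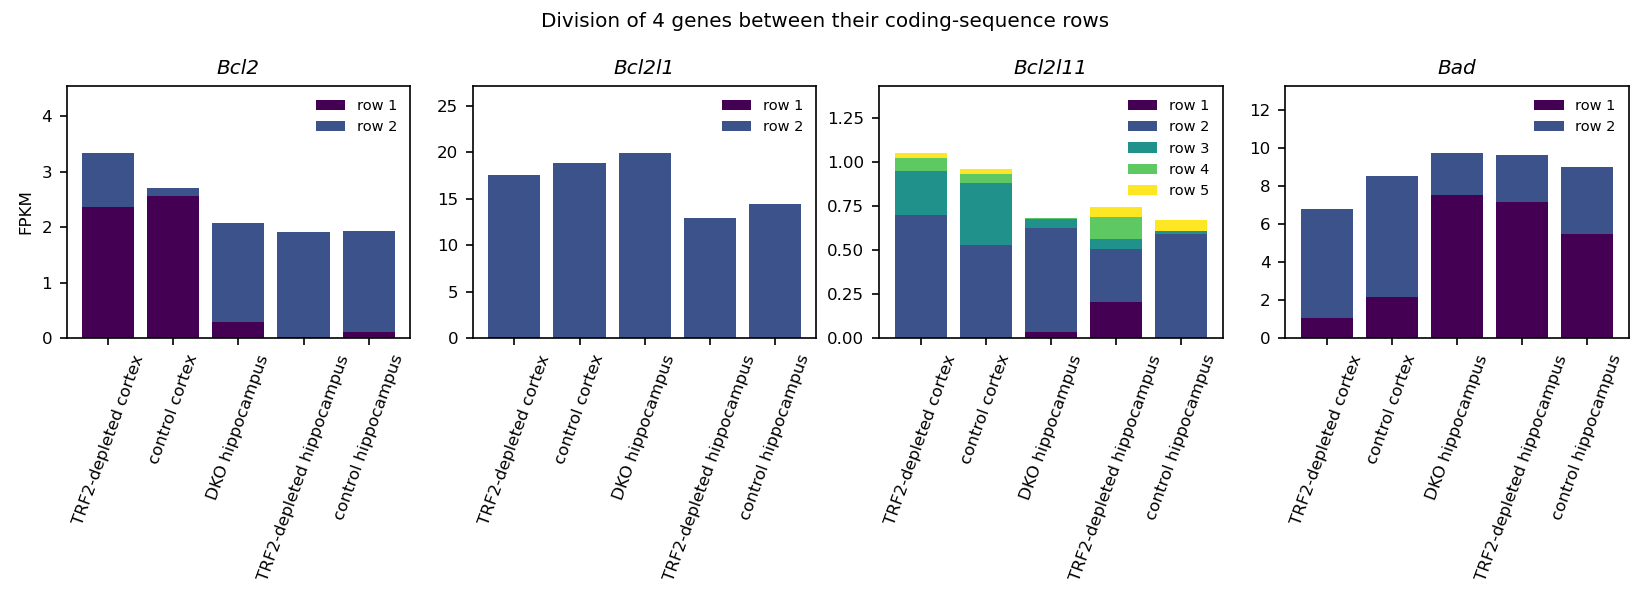
FPKM of the 4 members with several coding-sequence rows, stacked by row in each condition. Rows are numbered within each table and are not matched between tissues. Bad and Bcl2 each have a larger and a smaller row in every condition, Bcl2l1 rested almost wholly on row 2, and the 5 rows of Bcl2l11 together stayed near 1 FPKM or below.

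Over all 10 members, tested or not, ratios were centred near 0. The median log2 ratio of the 10 members was 0.10 in TRF2-depleted against control cortex, where that of the 8656 genes with a tested row was -0.03. It was 0.11 in TRF2-depleted against control hippocampus, 0.07 in DKO against control and 0.00 in DKO against TRF2-depleted hippocampus, where all tested genes had medians of 0.00, 0.01 and 0.01. Over members with a tested row alone, the like set, the median was 0.06 in cortex (6 members). In hippocampus it was 0.00 in TRF2-depleted against control (7 members), 0.29 in DKO against control (6 members) and 0.12 in DKO against TRF2-depleted (7 members). The 10 members split 6 higher and 4 lower in cortex. In hippocampus they split 7 and 3 in TRF2-depleted against control, 6 and 4 in DKO against control, and 5 and 5 in DKO against TRF2-depleted. Single ratios were wider than these medians: in DKO against TRF2-depleted hippocampus, 3 of the 7 members with a tested row (Bax, Bak1 and Bcl2l1) had an absolute log2 ratio over 0.5, against 11.1% of all genes with a tested row. In DKO against control hippocampus 2 of 6 did (Bax and Bid), against 12.6%, and in TRF2-depleted against control hippocampus 2 of 7 (Bax and Bak1), against 13.0%. In TRF2-depleted against control cortex 0 of 6 did, against 9.33%.

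**Figure D4:**
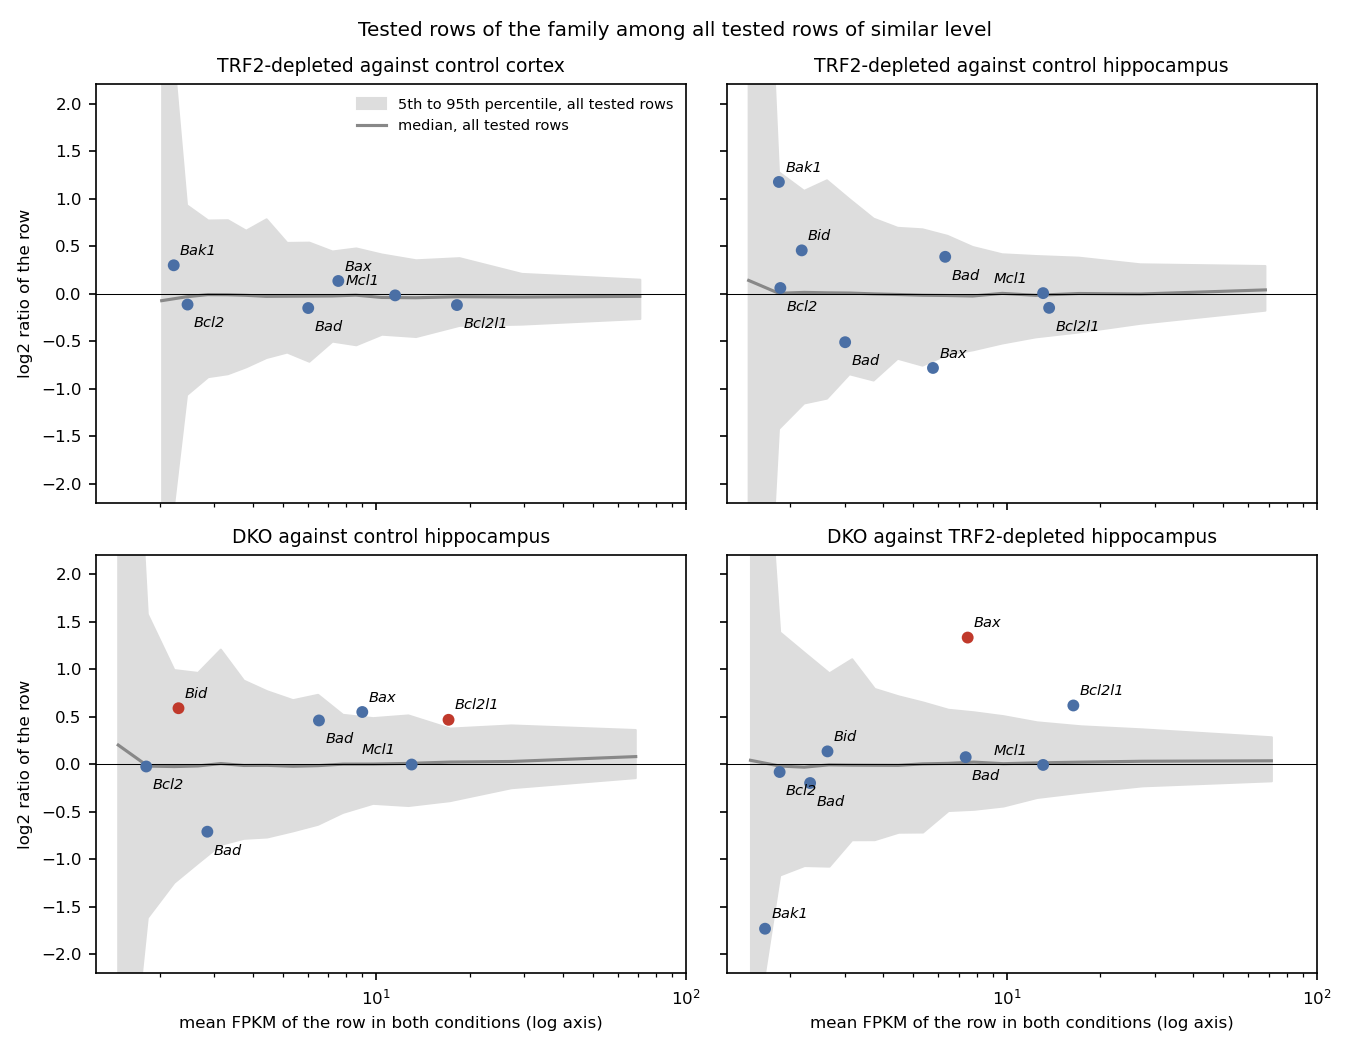
Log2 ratio against mean FPKM (log axis) for each tested row of the family, over a grey band that holds the 5th to 95th percentile of all tested rows in bins of abundance and runs past the axis in the lowest bin; red marks a deposited p under 0.05. In cortex 0 of 6 tested member rows lie outside the band, which by construction leaves out 1 row in 10; in hippocampus Bax (-0.78) lies below it in TRF2-depleted against control, and Bax (0.55 and 1.33) and Bcl2l1 (0.47 and 0.62) lie above it in DKO against control and in DKO against TRF2-depleted.

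Other genes of the pathway were near the background share in cortex and in DKO against TRF2-depleted hippocampus. Of 64 genes in 4 lists, 38 had a tested row in cortex and 42 in each hippocampus comparison, and 0 were called in any of the 4 (Cuffdiff), where between 0.154% and 0.304% of all tested rows were. At an unadjusted p under 0.05 there were 1 higher and 2 lower rows of 42 in TRF2-depleted against control cortex (7.14%, against 6.24% of all tested rows), and 1 higher and 1 lower of 48 in DKO against TRF2-depleted hippocampus (4.17%, against 4.79%). There were 0 of 47 in TRF2-depleted against control hippocampus, against 4.89% of all tested rows, and 0 of 47 in DKO against control hippocampus, against 6.71%. Counts this small are not read as a result about these lists. The median log2 ratio over genes with a tested row was 0.00 in cortex, 0.04 in TRF2-depleted against control hippocampus, -0.01 in DKO against control and -0.04 in DKO against TRF2-depleted hippocampus.

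Among the other Bcl2 family genes, Hrk, a BH3-only gene known from neurons, came nearest to a call. It was at 3.65 FPKM in TRF2-depleted and 4.94 FPKM in control cortex (log2 ratio -0.44, p = 0.00105, q = 0.0719 in the authors' deposited table), and at 6.22 FPKM in TRF2-depleted and 7.03 FPKM in control hippocampus (p = 0.2005, q = 0.886 in the authors' deposited table). The guardian Bcl2l2 (Bcl-w) was at 10.6 FPKM in DKO, 9.31 FPKM in TRF2-depleted and 2.54 FPKM in control hippocampus, a log2 ratio against control of 2.06 in DKO (p = 0.1429) and 1.87 in TRF2-depleted tissue (p = 0.1829, q = 0.886 for both) in the authors' deposited table. Bok, an effector-like relative, was at 18.0 FPKM in DKO and 12.5 FPKM in TRF2-depleted hippocampus (p = 0.0649, q = 0.886 in the authors' deposited table).

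Downstream of the mitochondria, cytochrome c (Cycs) was at 38.8 FPKM in TRF2-depleted and 33.3 FPKM in control cortex (log2 ratio 0.22, p = 0.02375, q = 0.358 in the authors' deposited table). In the death receptor list, Cflar, the inhibitor of caspase-8 activation, summed to 1.20 FPKM in DKO, 2.68 FPKM in TRF2-depleted and 2.22 FPKM in control hippocampus, and its tested row had p of 0.06345 against TRF2-depleted and 0.0946 against control in the authors' deposited table. Of the partner proteins, Akt1, a kinase that phosphorylates Bad, had its tested row at 30.7 FPKM in DKO and 22.6 FPKM in TRF2-depleted hippocampus (log2 ratio 0.44, p = 0.00245, q = 0.374 in the authors' deposited table). Mapk8 (JNK1), which can act on Bcl2l11 and Bcl2, was at 8.05 FPKM in DKO and 10.7 FPKM in TRF2-depleted hippocampus (p = 0.03715, q = 0.886 in the authors' deposited table). Ywhaq, a protein that binds phosphorylated Bad, was at 39.1 FPKM in TRF2-depleted and 52.9 FPKM in control cortex (p = 0.03385, q = 0.408 in the authors' deposited table).

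**Figure D5:**
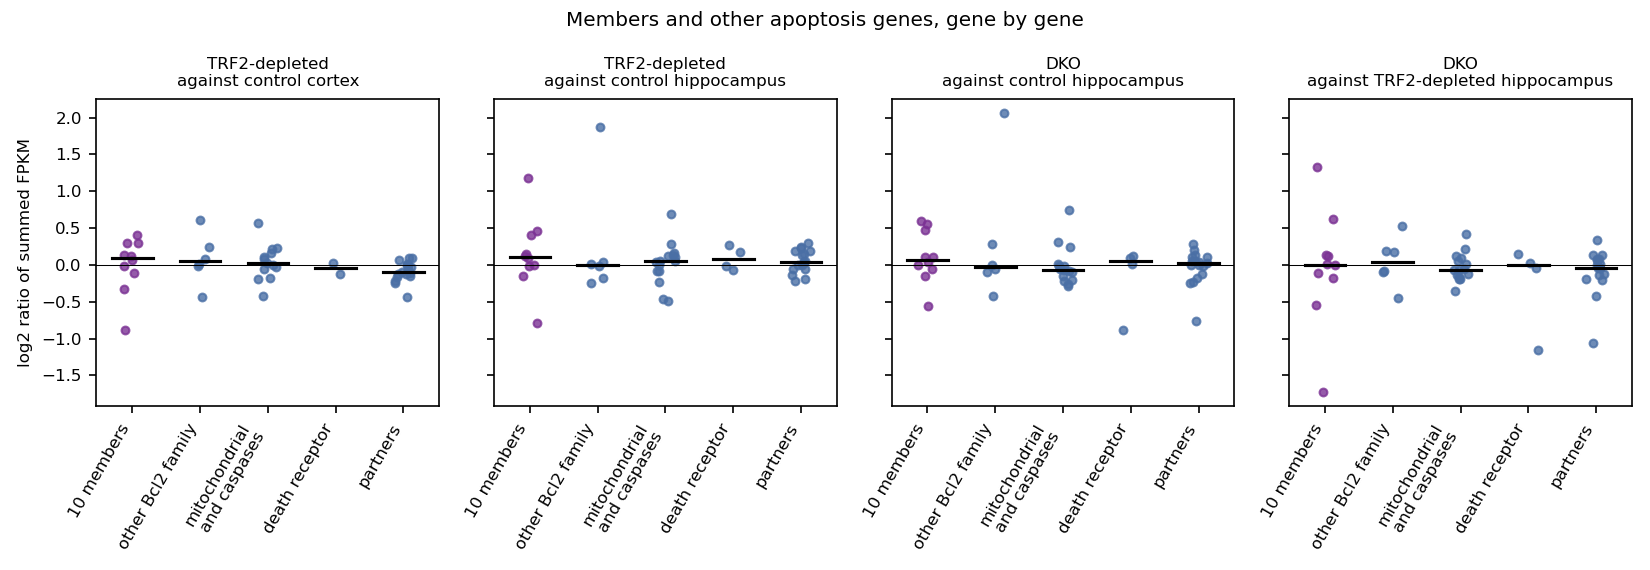
Log2 ratio of summed FPKM for the 10 members (purple) and for genes with a tested row in 4 lists of other apoptosis genes (blue), 1 point per gene, with black lines at the medians. Medians lie near 0 in each list and comparison, and the outlying blue point near 2 in both comparisons with control hippocampus is Bcl2l2.

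The p53 gene itself and its best known target are set beside Bax, Bbc3 and Pmaip1, and a link to these members was not tested. Trp53 summed to 3.63 FPKM in TRF2-depleted and 3.96 FPKM in control cortex, and to 2.35 FPKM in DKO, 4.79 FPKM in TRF2-depleted and 5.24 FPKM in control hippocampus. Its tested row had p of 0.00345 for DKO against TRF2-depleted (q = 0.429) and 0.0039 for DKO against control (q = 0.442) in the authors' deposited table. For TRF2-depleted against control, that row differed in sign from the sum in both tissues. Its log2 ratio was 0.24 in cortex (p = 0.5304, q = 0.857) and 0.03 in hippocampus (p = 0.9185, q = 0.992) in the authors' deposited table. Cdkn1a (p21) was at 8.32 FPKM in TRF2-depleted and 8.99 FPKM in control cortex, and at 2.53 FPKM in DKO, 1.79 FPKM in TRF2-depleted and 2.58 FPKM in control hippocampus, with no p under 0.05 in the authors' deposited table.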

How the data were processed

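Per the labels' protocols, total RNA came from a Qiagen RNeasy extraction and libraries from NEBNext Ultra. CASAVA 1.8, TopHat2, Cufflinks, Cuffdiff and build mm10 are named in the submitters' processing notes, with no other version, setting or annotation stated in the sources used. The authors deposited 1 FPKM value per condition and coding-sequence row, pooled over replicates, with a test statistic (a score, not used here), a p-value and a q-value, per the file headers. No deposited p-value is below 5e-05. In hippocampus the q-values match Benjamini-Hochberg values over all 3 comparisons to within 5.26e-07, and the cortex q-values differ from one over that table by up to 0.335.

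FPKM was summed over each gene's rows, and log2 ratios were recomputed without a pseudocount and carry no test. Samples were grouped by title, and the sample whose labels name both tissues went into no group. It may or may not be part of the authors' pools. Labels do not tie samples to animals, so any spread between samples that enters the Cuffdiff p-values may be technical. How far those p-values reflect such spread cannot be told from pooled values. For DKO no sample is labelled, so what its p-values rest on is unknown. Loci were shifted to count from 1, and gene overlaps come from GENCODE M21. Promoters come from the RefSeq table (GRCm38.p6). It held 9 of 10 members, and the transcribed bases of 10 of their 15 windows were found in a GENCODE transcript of the gene. The 3 motifs were chosen after values were seen. Named genes were all members, Terf2, and in each pathway list the called genes or the 2 with the smallest p, of which the text names part; Trp53 and Cdkn1a, and any value given for a pathway gene in a further comparison, were added after their values were seen. Members and lists were chosen with earlier results of these data known. Calculations used pandas 2.3.3 and numpy 2.4.6 under Python 3.11.15, scipy 1.17.1 for the simulated check and matplotlib 3.10.9 for figures, and the adjustment was tested on simulated data.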

Additional observations from a re-analysis of the deposited data

How the results depend on the processing

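No paired analysis was possible because the tables hold 1 pooled value per condition. For the same reason no replicate could be left out. The count of 0 called members held at a q of 0.1, after Benjamini-Hochberg adjustment within each comparison and with at least 1 FPKM. At an unadjusted p under 0.05 it became 2 in DKO against control and 1 in DKO against TRF2-depleted hippocampus. Pathway genes went from 0 called to 1 at a q of 0.1 (Hrk) and to 3 at an unadjusted p under 0.05 in cortex, and to 2 at an unadjusted p under 0.05 in DKO against TRF2-depleted hippocampus. Taking Bax over Bcl2 in place of all effectors over all guardians gave 2.36 in TRF2-depleted and 2.66 in control cortex, and 5.14 in DKO, 2.21 in TRF2-depleted and 3.79 in control hippocampus, a different quantity by construction. With the tested row of Bcl2 alone, an alternative chosen after seeing the data, it was 3.34 in TRF2-depleted and 2.81 in control cortex, and 5.97 in DKO, 2.24 in TRF2-depleted and 4.01 in control hippocampus. The members' median log2 ratio moved by less than the median absolute log2 ratio of all genes with a tested row (between 0.14 and 0.16) under all 5 alternatives. Keeping only members with a tested row was not among the 5. It moved the median by more than that scale in DKO against control hippocampus, from 0.07 to 0.29. Of 40 member ratios, 9 moved by more than that scale with a pseudocount of 1 FPKM (Bak1, Bax, Bbc3, Bid and Pmaip1), 8 with the most abundant row in place of the sum (Bad, Bcl2 and Bcl2l11), and 0 with a pseudocount of 0.1 FPKM or with centring. Depth is unknown, so counting error is not given.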
